A study of Caenorhabditis elegans with 2 samples.

Results

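The strong peaks of chromosome V were 293 regions called as enriched for tagged ZK546.5 in Caenorhabditis elegans larvae. They were chosen from the authors' ce11 peak list of the pooled replicates by a signal value of at least 18.1. That made 293 of the 5580 pooled peaks on chromosome V, of 30000 pooled peaks on all chromosomes. The assay was ChIP-seq, which is chromatin immunoprecipitation with sequencing of the recovered DNA, on whole L4 larvae, the last larval stage, of pooled sex. The strain, OP231, has the genotype unc-119(ed3) III; wgIs231, in which wgIs231 is an integrated transgene for ZK546.5 fused to GFP-FLAG at its C terminus. All larvae of the series were of this strain, stage and genotype, in 1 group of 2 biological replicates. The labels give no promoter for the transgene, and whole larvae hold all tissues together, so no peak can be assigned to a tissue. The labels say nothing of the role of ZK546.5 beyond the assay title, TF ChIP-seq.

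ChIP-seq reports where on DNA a tagged protein, or a complex that holds it, was cross-linked in a mixture of cells. A summit is the base of a peak with the highest signal, and it is the closest estimate of the contact site. Chromosome V is the largest autosome of C. elegans. Worm autosomes have a centre that holds many conserved, widely expressed genes, and arms that hold more repeats and more fast-changing gene families. Chromosome V carries large tandem families of chemoreceptors, the receptors by which the worm senses odours and tastes, together with many nuclear hormone receptors and cytochrome P450 genes. Strong ChIP-seq peaks of worm transcription factors often lie just upstream of genes that most cells express, such as those for ribosomal proteins.

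The sequences at 7 of the strongest intergenic summits are shown because they are among the places of highest signal outside transcripts, and they show where the words counted below lie. Each is up to 100 bp either side of the summit, on the plus strand of ce11 (WBcel235, RefSeq sequence), clipped where an annotated transcript begins. Capitals mark 6 words, read on either strand. They are ACCGTA, then GCGCAC, then AGCGCG, then GAGCGC, and next ACGCAG with the longer word TGCGTCTC. Several of them share letters and can overlap, such as the last pair. The first 4 of the lines below are chrV:10897281-10897481, chrV:18967830-18967904, chrV:9344204-9344387 and chrV:20778282-20778482. The others are chrV:20005915-20006115, chrV:9546918-9547104 and chrV:265147-265347, of which the last 2 hold none of the 6 words.
sec-61.G: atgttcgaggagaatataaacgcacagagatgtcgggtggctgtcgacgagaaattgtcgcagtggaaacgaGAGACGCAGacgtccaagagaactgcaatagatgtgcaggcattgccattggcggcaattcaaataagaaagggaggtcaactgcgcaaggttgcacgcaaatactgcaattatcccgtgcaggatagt
Y39B6A.43: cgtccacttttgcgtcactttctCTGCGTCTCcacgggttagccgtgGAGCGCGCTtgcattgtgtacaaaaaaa
tos-1: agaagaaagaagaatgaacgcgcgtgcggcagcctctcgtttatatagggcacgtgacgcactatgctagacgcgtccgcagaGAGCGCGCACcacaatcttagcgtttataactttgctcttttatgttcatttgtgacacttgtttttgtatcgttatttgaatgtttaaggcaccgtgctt
hif-1: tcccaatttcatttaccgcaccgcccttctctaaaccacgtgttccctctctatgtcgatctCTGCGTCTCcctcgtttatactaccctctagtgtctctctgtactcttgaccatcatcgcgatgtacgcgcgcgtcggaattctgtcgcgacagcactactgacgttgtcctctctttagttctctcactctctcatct
unc-51: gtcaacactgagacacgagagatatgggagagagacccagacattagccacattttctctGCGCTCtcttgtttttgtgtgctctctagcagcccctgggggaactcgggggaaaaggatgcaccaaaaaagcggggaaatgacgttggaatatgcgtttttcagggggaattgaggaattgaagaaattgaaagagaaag
his-37: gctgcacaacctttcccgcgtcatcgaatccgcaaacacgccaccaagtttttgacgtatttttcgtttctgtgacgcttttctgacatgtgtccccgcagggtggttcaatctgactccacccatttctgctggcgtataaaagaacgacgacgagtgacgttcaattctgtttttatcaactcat
lgc-26: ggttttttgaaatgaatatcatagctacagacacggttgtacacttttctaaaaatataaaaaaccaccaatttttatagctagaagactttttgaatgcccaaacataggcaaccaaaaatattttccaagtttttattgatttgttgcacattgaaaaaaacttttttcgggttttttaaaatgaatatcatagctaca

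The strongest member lay in intergenic sequence of the centre of chromosome V, with its summit at 10897381, in a peak at chrV:10897171-10897582. It was 238 bp upstream of the annotated 5′ end of sec-61.G, which encodes the gamma subunit of the Sec61 channel that moves proteins into the endoplasmic reticulum. Its pooled signal was 992, its signal in the list of replicate 1 was 494 and in that of replicate 2 it was 489. It ranked 6 among all peaks of replicate 1 and 3 among those of replicate 2. How the lists were scaled to each other is not stated, so signals were compared only within a list.

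The next members were far weaker than the first. The summit at 5049617, with a pooled signal of 199, lay in the 5′ UTR of pqn-51, a gene for a protein with a glutamine/asparagine-rich stretch. It was 10 bp inside that gene and 19 bp from the 5′ end of K11D12.14, with ranks 46 in replicate 1 and 36 in replicate 2. A signal of 165 was found at 9731184, in an exon of non-coding RNA genes and 186 bp upstream of a 5′ end of drap-1, whose product is a homologue of a general repressor of transcription initiation. Its ranks were 53 in replicate 1 and 42 in replicate 2. At his-37, a histone H4 gene, the summit was 87 bp upstream and the signal 83.7, with ranks 109 in replicate 1 and 52 in replicate 2. These 4 members stood high in both replicates.

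Members 5 to 10 on the chromosome had signals between 77.8 and 52.0. The peak with the signal 77.8 was inside the long non-coding RNA gene linc-128 and 4761 bp upstream of cmd-1, the calmodulin gene. A signal of 68.7 lay between the 5′ ends of F32D8.14 and F32D8.5, at 4 bp from one and 8 bp from the other. It was on the same stretch as the sec-61.G peak, with its summit at 10894792. Y39B6A.43 had a summit 54 bp upstream and a signal of 64.1. The signal of 63.3 lay 19 bp inside eef-1G, which encodes the gamma subunit of translation elongation factor 1, and 199 bp from the 5′ end of ctf-4, a gene of chromosome replication. The summit between C47E8.4 and hsp-90, the gene of the cytosolic chaperone Hsp90, had a signal of 58.8 and was 267 bp from the first and 408 bp from the second. At tos-1, a gene known as a target of splicing factors, the signal was 52.0 and the summit 84 bp upstream.

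The members at egl-9 and hif-1 were neighbours in strength. EGL-9 is the prolyl hydroxylase that marks the transcription factor HIF-1 for destruction when oxygen is present. The egl-9 member had a signal of 40.7, at 1812 bp upstream of the gene and inside the non-coding RNA genes F22E12.9 and F22E12.10. Its signal was 21.1 with rank 251 in replicate 1, and 12.6 with rank 1970 in replicate 2. The hif-1 member had a signal of 39.0 and lay in intergenic sequence 2025 bp upstream of the 5′ end, at 20778382. Its signal was 24.3 with rank 205 in replicate 1, and 14.1 with rank 1127 in replicate 2. Neither summit was within 500 bp of a 5′ end of its gene, and the lists do not show whether either gene is regulated from there.

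Other members of the strongest 20 lay near genes of varied roles. The one 1530 bp upstream of unc-51, the autophagy kinase related to Atg1, had a signal of 37.1. The summit 216 bp upstream of nol-56, whose protein is part of the box C/D particles that methylate ribosomal RNA, had 35.7. It ranked 194 in replicate 1 and 12398 in replicate 2, which are far apart. Between F25B4.4 and hmgs-1, the gene of HMG-CoA synthase in the mevalonate pathway, the summit was 136 bp from the first and 148 bp from the second, with a signal of 35.5. The member at F25E5.9 had a signal of 33.6 and went the other way from nol-56, with rank 6127 in replicate 1 and 144 in replicate 2. A pair of the 20 lay on or beside small nucleolar RNA (snoRNA) genes, which guide chemical changes in ribosomal RNA. One, with a signal of 37.0, was in an intron of cutl-18 and 81 bp from the start of the snoRNA gene T03F7.8. The other, with 35.6, was inside the snoRNA gene C51F7.4 within frm-7, where F55C5.17 had the nearest coding 5′ end.

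The lgc-26 member, 3060 bp upstream of a ligand-gated ion channel gene in the left arm, had a signal of 44.7. It was the 1 member of 293 whose central 50 bp occur more than once in the genome, with 6 copies. Reads from such copies cannot be placed with certainty, and how the authors treated them is not stated in the labels or files used here. Among the strong peaks of the other autosomes 11 of 1384 had a repeated centre, and among the weaker peaks of chromosome V 34 of 5287.

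Over all members, the signal had a median of 20.7, with quartiles of 19.3 and 23.7. Strong peaks of the other autosomes had a median of 21.5 and quartiles of 19.4 and 26.7. Only 3 members had a signal of 100 or more and 10 had 50 or more, against 51 and 109 of the 1384 on the other autosomes. These values chose the members and are given as a description. The 3 members nearest above the threshold were at cpt-4 and Y17D7C.2, each with 18.11, and at T10G3.3 with 18.10. The 3 peaks nearest below it were at ttn-1 and cpt-6, each with 18.08, and at C15H11.1 with 18.02. Widths varied little, since 290 of 293 members were 344 bp wide. The other 3 were the strongest members, at sec-61.G, pqn-51 and drap-1, with widths of 412, 317 and 203 bp.

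Chromosome V held fewer strong peaks for its size than any other autosome. There were 14.0 per Mb of chromosome V, and between 20.3 and 25.3 per Mb on the other autosomes. Per 1000 protein-coding genes there were 58.7 on V and between 89.9 and 133 on the others. Of the pooled peaks of V, 5.25% reached the threshold, against 7.17% of those on the other autosomes. Chromosome V thus had 17.5% of all strong autosomal peaks (95% Wilson interval 15.7 to 19.4%), with 25.3% of the autosomal length and 29.0% of the autosomal coding genes. These shares follow from the values that chose the members, and no test was made of them. All intervals here cover counting error only, and the sequencing depth behind the lists is unknown.

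Intergenic sequence was the most frequent place of a summit among the members, as among strong peaks elsewhere. The summit base was intergenic in 137 members (46.8%), in an intron in 70 (23.9%), in a coding exon in 40 (13.7%), in another exon in 19, in a 3′ UTR in 17 and in a 5′ UTR in 10. Strong peaks of the other autosomes were intergenic in 673 of 1384 cases (48.6%). The odds ratio was 0.928 (95% interval 0.715 to 1.20), and the difference did not pass Fisher's exact test (two-sided, adjusted p = 0.644 over 8 tests). Weaker pooled peaks of V were intergenic in 35.0% of 5287 cases, which is less than in the members, with an odds ratio of 1.63 (1.27 to 2.08, adjusted p = 1.48e-04, Fisher's exact test). That difference did not pass when the whole peak, and not its summit, had to lie outside gene bodies, with an odds ratio of 1.14 and an adjusted p of 0.490 by the exact test. Coding exons held 13.7% of members and 22.7% of the weaker peaks, and introns held 23.9% of members and 32.4% of the weaker ones. The authors label the pooled list as input to a reproducibility analysis that holds background too, so the weaker peaks need not be binding sites.

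**Figure D1:**
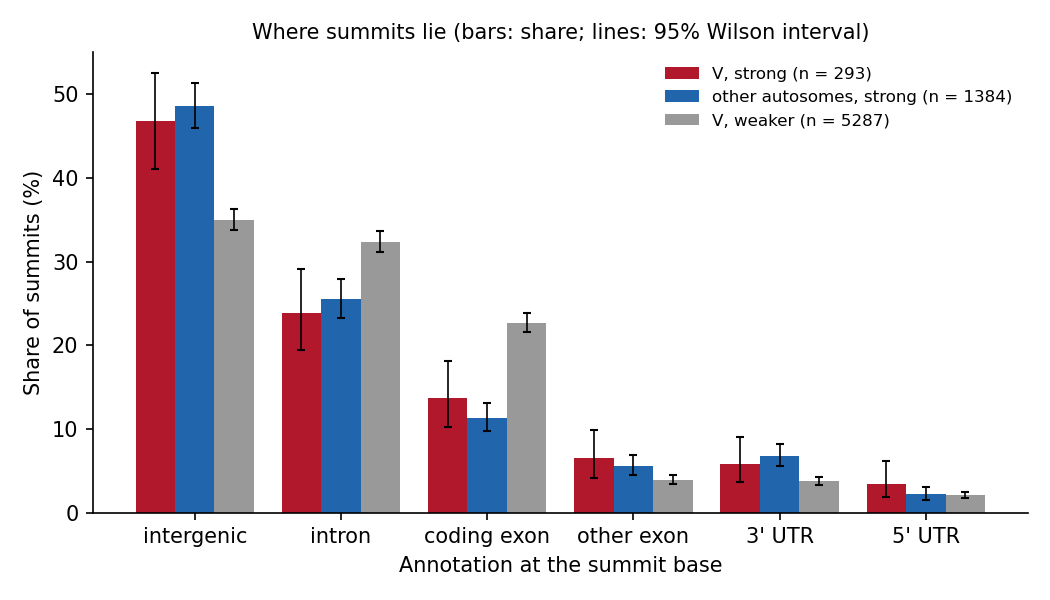
Share of summits (%, vertical axis) by the annotation at the summit base (horizontal axis), for strong peaks of chromosome V, strong peaks of the other autosomes and weaker pooled peaks of V, with 95% Wilson intervals as lines. Intergenic sequence held 46.8% of the strong V peaks, 48.6% of the strong peaks elsewhere and 35.0% of the weaker V peaks.

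The strongest member of each class shows what these places are. The pqn-51 peak led the 5′ UTR class, the drap-1 peak the class of other exons and the C47E8.4 peak the introns. Among summits in coding exons the strongest had a signal of 32.3, at 91 bp inside Y49A3A.3. The strongest in a 3′ UTR was at lys-2, a lysozyme gene, with a signal of 28.3 at 1158 bp inside the gene. A second member was 94 bp upstream of the same gene, with 31.2.

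Members were near gene starts more often than the weaker peaks of V, and no difference from strong peaks elsewhere was detected. The summit was no more than 500 bp from an annotated coding 5′ end in 120 of 293 members (41.0%) and in 619 of 1384 strong peaks of the other autosomes (44.7%). The odds ratio was 0.857 (0.658 to 1.12), which did not pass Fisher's exact test (adjusted p = 0.326). Of the weaker V peaks, 29.2% were that near, giving an odds ratio of 1.68 (1.31 to 2.15, adjusted p = 8.94e-05 by Fisher's exact test). The call was lost without replicate 1. In the strongest 2003 peaks of replicate 2 alone, the odds ratio was 1.07 (adjusted p = 0.548, exact test). In those of replicate 1 alone it was 1.69. Most of the near summits were upstream of the start: 87 of 120 members (72.5%), against 77.7% of the strong peaks elsewhere and 53.3% of the weaker V peaks. The median distance to a coding 5′ end was 759 bp for members, 672 bp for the strong peaks elsewhere and 1021 bp for the weaker V peaks. Because many worm transcripts are trans-spliced, true starts can be upstream of the annotated ends.

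**Figure D2:**
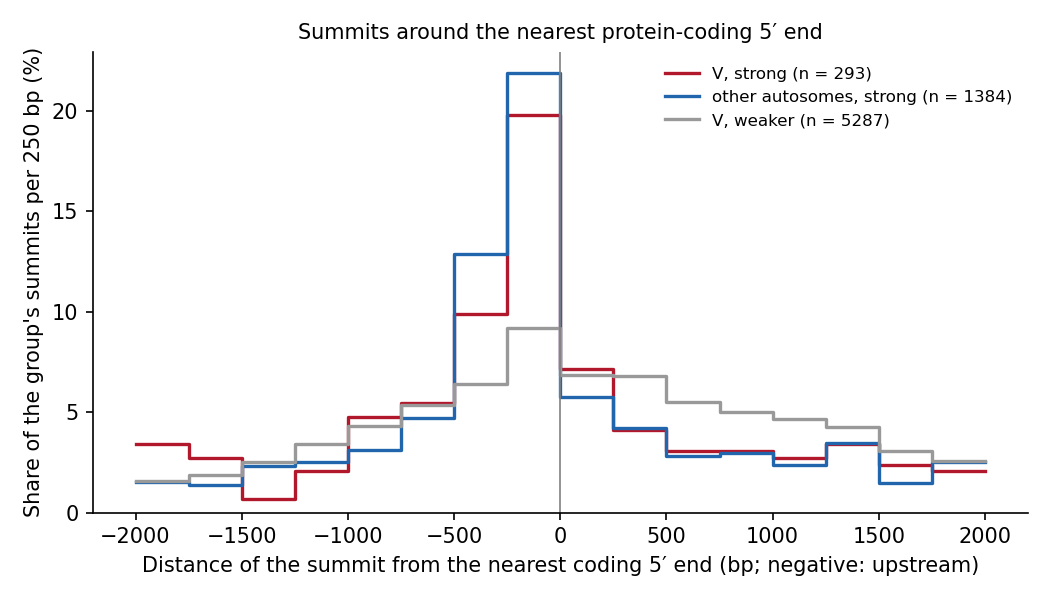
Share of each group's summits per 250 bp (%, vertical axis) by distance from the nearest protein-coding 5′ end (bp, horizontal axis, negative upstream), for the 3 groups of peaks. In the 250 bp just upstream lay 19.8% of the strong V peaks, 21.9% of the strong peaks elsewhere and 9.19% of the weaker V peaks.

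Of the 4 features tested, divergent gene starts on either side of the summit gave the odds ratio farthest from 1 between members and weaker peaks of V. In 27 members (9.22%) a minus-strand coding 5′ end lay within 500 bp to the left of the summit and a plus-strand one within 500 bp to the right, counting the 5′ ends of all transcripts. At some of them, such as eef-1G and fbxa-72, another transcript of the gene began on the other side, so that the summit was inside the gene. Of the weaker V peaks 54 of 5287 (1.02%) did so, an odds ratio of 9.84 (5.85 to 16.2, adjusted p = 1.23e-14, Fisher's exact test). Without replicate 1 that odds ratio was 2.88 (adjusted p = 0.00950, exact test) and without replicate 2 it was 6.97. Strong peaks elsewhere did so in 9.61%, an odds ratio of 0.955 (0.594 to 1.49, adjusted p = 0.913, exact test). Taken from replicate 2 only, strong peaks had such pairs less often on V than on the other autosomes, with an odds ratio of 0.458 and an adjusted p of 0.0253 in the exact test. The ribosomal protein genes of V supplied 3 of these pairs. The summit between mrpl-49 and rpl-28 had a signal of 30.3 and was 238 bp from the first and 281 bp from the second. One between rpl-39 and rps-30, at 249 and 250 bp, had 29.2. Another between calf-1 and rpl-2, at 191 and 409 bp, had 21.2.

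Beyond 5 kb from any coding start lay 9 of 293 members (3.07%), against 6.29% of the strong peaks elsewhere and 4.96% of the weaker V peaks. A pair of them lay by microRNA genes, and both were picked out after their values were seen. The first, with unc-39 as the nearest coding gene at 6938 bp, had a signal of 22.6 and was 88 bp from mir-241. The second had a signal of 19.8 and was 471 bp from mir-48. These microRNAs belong to the let-7 family and act in the timing of larval development. Neither member was in the list of reproducible peaks. The mir-241 member was matched in both replicate lists, at ranks 3154 and 2702. The summits of the pair, at 14366136 and 14364980, are on the same stretch and need not be separate events. A microRNA gene began within 500 bp of 3 members (1.02%). The share was 0.867% for the strong peaks elsewhere and 0.189% for the weaker V peaks.

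Along chromosome V, members gathered in the middle. The 3 equal parts of the chromosome held 83 on the left, 143 in the centre and 67 on the right. The left and right parts, called arms here, held 150 of 293 members (51.2%), against 826 of 1384 strong peaks on the other autosomes (59.7%). The odds ratio was 0.709 (0.546 to 0.920), which passed Fisher's exact test (two-sided, adjusted p = 0.0145). Taken singly, the other autosomes had from 55.2% of strong peaks in the arms, on I, to 63.7%, on IV. The interval on I, 50.2 to 60.1%, overlapped that on V, 45.5 to 56.9%. The arms of V held 64.0% of its coding genes, and those of the other autosomes between 59.4 and 64.0%. Replicate by replicate the direction was kept and the call was lost. The odds ratio was 0.809 in the strongest peaks of replicate 2 (adjusted p = 0.107) and 0.799 in those of replicate 1 (adjusted p = 0.104), both by the exact test. Against the weaker V peaks, of which 66.6% were in the arms, the odds ratio was 0.525 (0.412 to 0.670, adjusted p = 4.95e-07, Fisher's exact test), and it passed in each replicate alone.

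**Figure D3:**
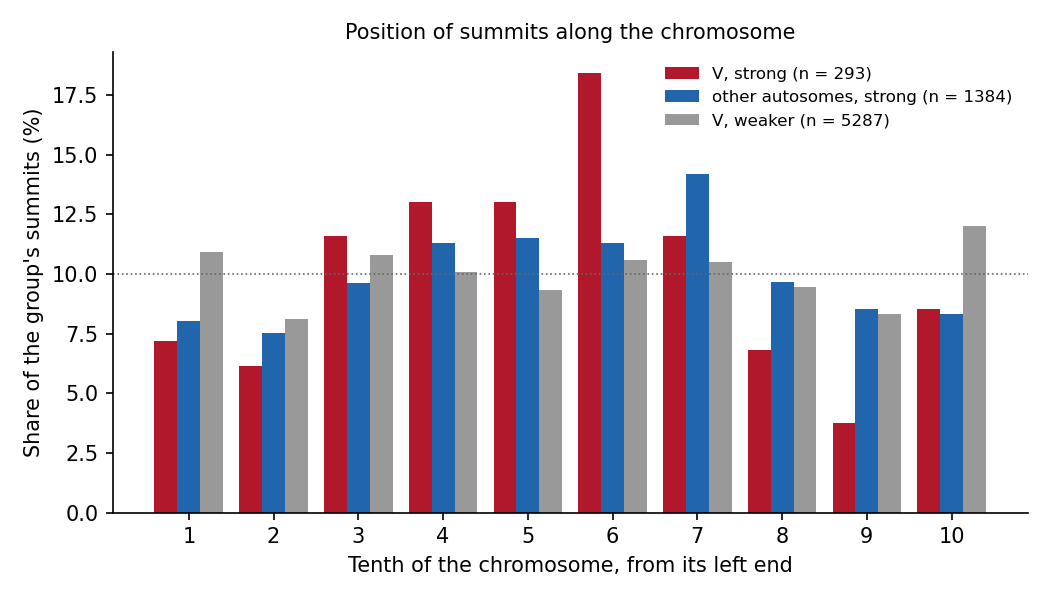
Share of each group's summits (%, vertical axis) in each of 10 equal bins of the chromosome from its left end (horizontal axis), for the 3 groups of peaks, with the dotted line at an equal share of 10%. Strong V peaks reached 18.4% in bin 6 and had 3.75% in bin 9, while no bin held more than 12.0% of the weaker V peaks.

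Of these bins, the one from 10.5 to 12.6 Mb held 54 members, among them those at sec-61.G, F32D8.14 and eef-1G, and 9 of the 25 reproducible members. The bin from 16.7 to 18.8 Mb held 11 members and none of the reproducible ones. It also had the longest stretch with no member, 992 kb from 16860493 to 17852251. That stretch began at clec-32, a gene for a C-type lectin, whose member had a signal of 18.3. The median gap between neighbouring members was 42.2 kb. Arm members were near a coding start in 35.3% of 150 cases (interval 28.1 to 43.3%) and centre members in 46.9% of 143 (38.9 to 55.0%), 2 intervals that overlap. No test was made of that contrast.

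Some members lay close together. Adjacent summits were within 1000 bp of each other in 8 pairs, which left 285 separate places. W06H8.6 was the nearest coding gene of 5 members, with signals of 33.6, 22.9, 20.8, 20.5 and 20.2, from 4092 bp inside the gene to 1738 bp upstream of it. F40A3.7 was nearest to 3 members, with signals from 18.5 to 18.9. In all, 271 genes were the nearest to a member and 18 of them to more than 1, so neighbouring members need not be separate events.

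Chemoreceptors, the family with the most genes on chromosome V among the lists used, were seldom near a member. Of its 878 chemoreceptor genes, 5 (0.569%) had a 5′ end within 500 bp of a member, while 153 of all 4994 coding genes on V did (3.06%). Those 5 were srh-16, with a signal of 22.0, srx-21 with 21.7, str-101 with 19.7, srh-2 with 18.9 and srab-1 with 18.5. The srh-16 summit was 61 bp upstream of that gene. The srx-21 summit was inside fbxa-72, a gene for an F-box protein. Chemoreceptors made up 17.6% of the coding genes of V and 3.27% of those near a member. On the other autosomes 1 of 383 chemoreceptor genes was near a strong peak. A chemoreceptor was the nearest coding gene, at any distance, of 12 members. The strongest of these was in an intron of C08D8.1, 2596 bp upstream of srsx-22, with a signal of 23.8, and it was 33 bp from the start of the snoRNA gene C08D8.3.

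On V, 5 such families, the chemoreceptors, nuclear hormone receptors, F-box and MATH-BTB proteins, C-type lectins with antimicrobial genes, and detoxification genes, came to 1380 genes. Of these, 15 (1.09%) were near a member, against 18 of the 1067 genes of these families on the other autosomes (1.69%). Of the other 3614 coding genes of V, 138 (3.82%) were near a member, against 725 of 11181 on the other autosomes (6.48%). Over all coding genes the shares were 3.06% on V and 6.07% on the other autosomes. Nuclear hormone receptors are ligand-responsive transcription factors, of which V has 167, and 3 were near a member. They were nhr-47 with a signal of 30.6, nhr-68 with 22.5 and nhr-142 with 21.6. The nhr-47 summit was also near dnj-19, a DnaJ co-chaperone gene. The cytochrome P450 genes cyp-32B1, with 23.8, and cyp-33C5, with 18.6, were the detoxification genes near a member, of 105. F-box and MATH-BTB genes, which act in protein degradation, had 3 of 95 near a member, namely fbxb-72 with 23.4, bath-36 with 22.2 and fbxa-72. That share (3.16%) was close to the share of all coding genes of V. On the other autosomes, 4 of 80 nuclear hormone receptor genes and 3 of 94 detoxification genes were near a strong peak. So were 5 of 315 F-box and MATH-BTB genes there.

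**Figure D4:**
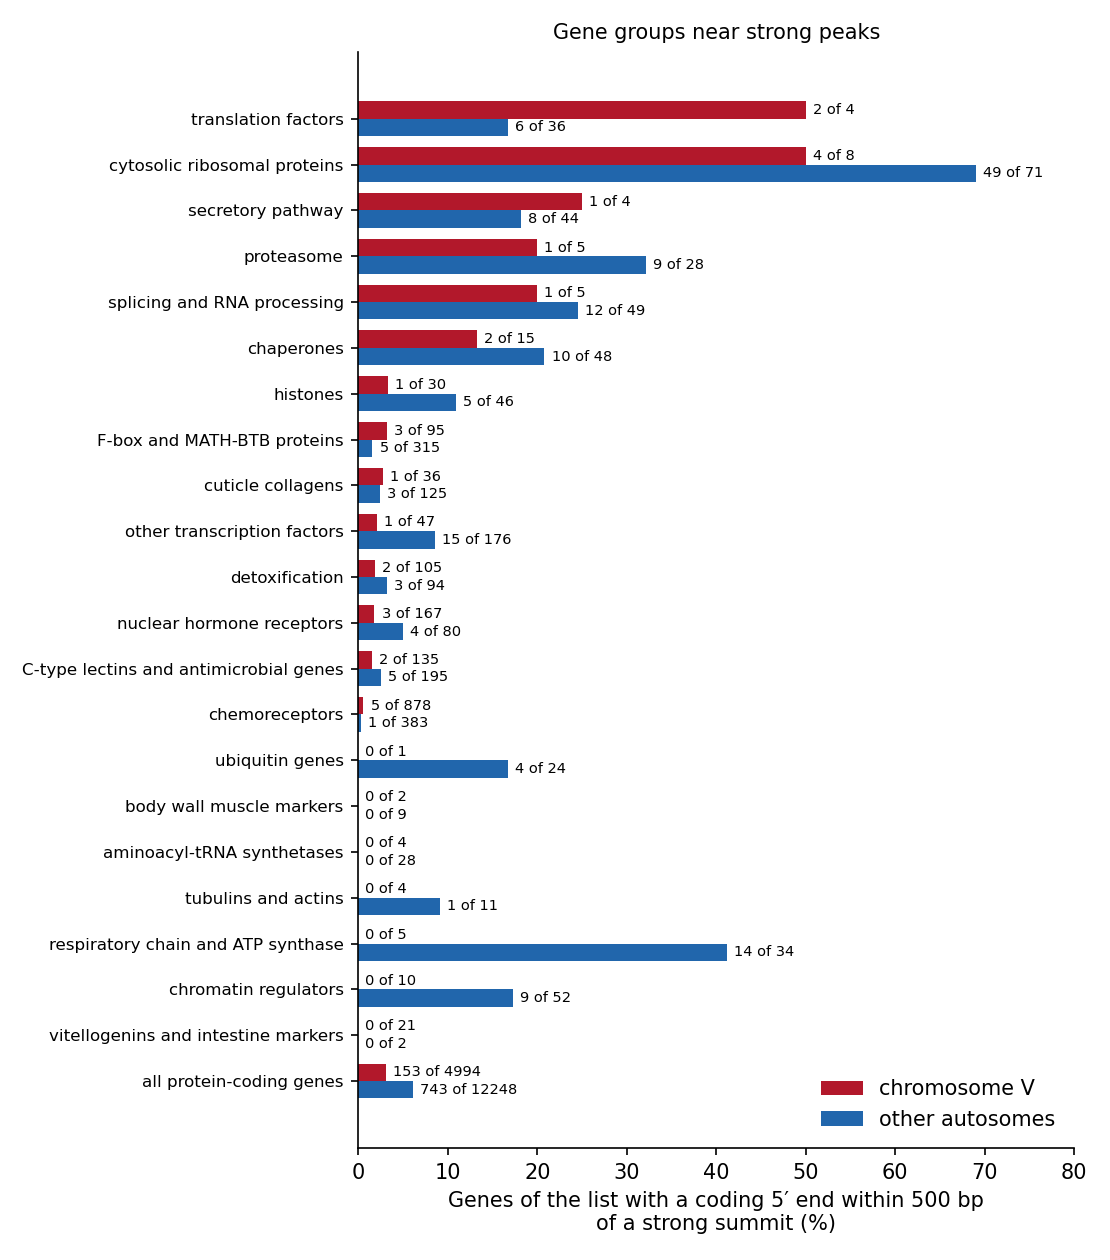
Share of the genes of each of 21 lists (%, horizontal axis) that had a protein-coding 5′ end within 500 bp of a strong summit, on chromosome V and on the other autosomes, with all coding genes in the last row and the counts beside the bars. On V, 4 of 8 ribosomal protein genes and 5 of 878 chemoreceptor genes were near a strong peak.

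Chromosome V holds few genes of the lists that most cells express, and the share near a member varied between these lists. Of the 8 cytosolic ribosomal protein genes on V, 4 were near a member, namely rpl-28, rpl-39, rps-30 and rpl-2, against 49 of 71 on the other autosomes. Their signals were between 21.2 and 30.3. Of 4 translation factor genes, eef-1G and eif-2Bdelta, with 21.2 at eif-2Bdelta, were near a member, against 6 of 36 on the other autosomes. The secretory list supplied sec-61.G, of 4 genes, against 8 of 44. The proteasome supplied rpt-1, an ATPase of its base, with 27.6, of 5 genes, against 9 of 28. The splicing list supplied snr-4, an Sm protein of the spliceosome, with 32.2, of 5 genes, against 12 of 49. That summit was 330 bp upstream of snr-4, inside the non-coding RNA gene C52E4.14. It was 65 bp from the start of T11F9.15, a small nuclear RNA (snRNA) gene. Chaperones supplied hsp-90 and dnj-19, of 15, against 10 of 48. None of 5 respiratory chain genes on V and none of 10 chromatin regulators was near a member, against 14 of 34 and 9 of 52 on the other autosomes. Of 30 histone genes on V, only his-37 was, against 5 of 46 on the other autosomes. Of the members named here, those at sec-61.G, eef-1G, hsp-90 and his-37 were in the list of reproducible peaks, and the others were not. The eif-2Bdelta summit ranked 14437 in replicate 1 and 25961 in replicate 2. At rpt-1 the ranks were 21330 and 775, and the rpl-28 summit was matched in replicate 2 alone, at rank 206. With so few genes in each list the counts are a description.

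The remaining lists are set beside all coding genes, of which 3.06% on V and 6.07% on the other autosomes were near a strong peak. On the other autosomes the cuticle list had 3 of 125 genes near a strong peak, and on V it had 1 of 36. The one on V was dpy-11, with a signal of 22.9, which encodes a thioredoxin-like protein that acts in cuticle formation and is no collagen itself. The list of other transcription factors, made from symbols, also took in egl-9, an enzyme gene. It had 1 of 47 genes near a member, against 15 of 176 on the other autosomes. The gene on V was ztf-7, a zinc finger gene, with 31.4. The list of C-type lectins with antimicrobial genes, also made from symbols, had 2 of 135 near a member, against 5 of 195 on the other autosomes. Those on V were lys-2 and nlp-24, the latter with a signal of 19.1. The aminoacyl-tRNA synthetase, ubiquitin, tubulin and actin, body wall muscle and intestine lists had no gene of V near a member, out of 4, 1, 4, 2 and 21. On the other autosomes these lists had, in the same order, 0 of 28, 4 of 24, 1 of 11, 0 of 9 and 0 of 2. The actin gene act-2 had a summit 522 bp upstream, just outside that distance, with a signal of 20.7.

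Small RNA genes lay near some of the members. A snoRNA gene began within 500 bp of 9 members (3.07%), against 3.25% of the strong peaks elsewhere and 0.549% of the weaker V peaks. Genes of unclassified non-coding RNA did so for 38 members (13.0%), against 157 of the 1384 strong peaks elsewhere and 370 of the 5287 weaker V peaks. The fib-1 gene, whose protein fibrillarin is the methyltransferase of the box C/D particles that snoRNAs guide, had a member 117 bp upstream with a signal of 27.3, picked out after its value was seen. It was also 203 bp from the 5′ end of mut-15. Genes of piRNAs, small RNAs of the germ line, were within 500 bp of 2 members (0.683%). The share was 5.56% for the strong peaks elsewhere and 1.06% for the weaker V peaks. How piRNA genes are spread over the other autosomes was not examined. Genes for tRNAs were within that distance of 2 members (0.683%), against 0.795% of the strong peaks elsewhere and 0.511% of the weaker V peaks. Those for snRNAs were as near to 2 members (0.683%), against 1.01% and 0.208%. Genes for ribosomal RNA were that near to no peak of the 3 groups.

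Most members were also found in each of the separate replicate lists. A summit within 100 bp was in the list of replicate 1 for 207 members (70.6%) and in that of replicate 2 for 224 (76.5%), against 72.0% and 77.7% of strong peaks elsewhere. Both lists held 149 members (50.9%, interval 45.2 to 56.5%), against 54.0% of the strong peaks elsewhere and 7.15% of the weaker V peaks. Replicate 1 alone held 58, replicate 2 alone held 75, and 11 were in neither. The pooled list was made from the reads of both replicates, so this agreement is not independent and was not tested. Members found in both lists were near a coding start in 49.7% of 149 cases and the others in 31.9% of 144.

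A match in a replicate's list could be at any rank. Each replicate list has 30000 entries, and 96 members were among the strongest 2003 of replicate 1, 107 among those of replicate 2, and 24 (8.19%) among both. Of the strong peaks elsewhere 15.9% were among both. The list of reproducible peaks, which the authors cut at an irreproducible discovery rate (IDR), a score for the agreement of ranks in the 2 replicates, held 25 members (8.53%, interval 5.85 to 12.3%), against 16.9% of the strong peaks elsewhere. Those 25 were also the strongest 25 of the chromosome, with signals of 32.3 and above, and reproducible peaks elsewhere likewise had 32.2 and above. The contrast in IDR shares therefore repeats the difference in the signal that chose the members. The strongest member outside the IDR list was the one at snr-4, with 32.2, which was matched in replicate 2 alone. For the 149 members matched in both lists, the Spearman correlation between the replicates was 0.0227. It was 0.495 for the 23 of these in the IDR list and -0.338 for the 126 outside it. On a log2 scale the Pearson correlations were 0.523, 0.774 and -0.301, in that order. Values of these same replicates chose each set, so the correlations are a description.

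**Figure D5:**
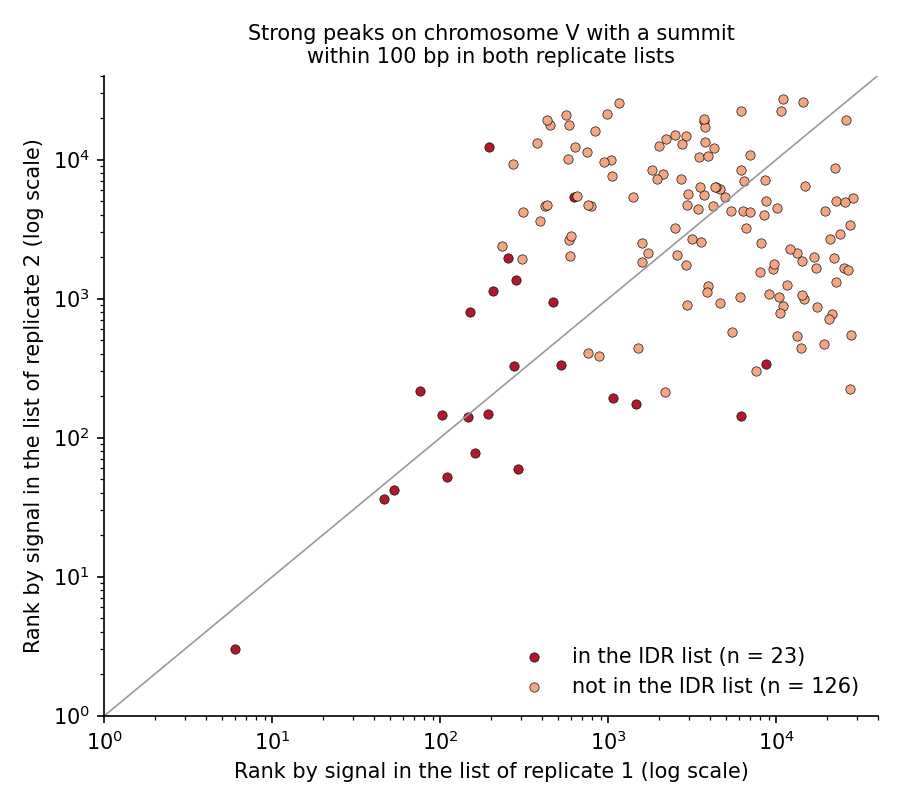
Rank by signal in the list of replicate 1 (horizontal axis, log scale) and of replicate 2 (vertical axis, log scale) for the 149 strong V peaks matched in both lists, with 23 in the IDR list and 126 outside it, and a line of equal rank. The peak of sec-61.G stands at ranks 6 and 3, apart from all others, and points outside the IDR list spread over both axes with few high in both.

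Members of the IDR list are called reproducible here after that list alone. Only 23 of the 25 were matched in both replicate lists, and their ranks could lie far apart. The 25 members were shaped as follows. Their summits were near a coding start in 13 cases (52.0%, interval 33.5 to 70.0%), against 170 of the 234 reproducible peaks elsewhere (72.6%, interval 66.6 to 78.0%). The odds ratio was 0.408, and the difference did not pass Fisher's exact test (adjusted p = 0.0615). Arms held 11 of the 25 members, and 4 had divergent starts on either side as counted above. The 11 in the arms were those at pqn-51, cmd-1, Y39B6A.43, C47E8.4, lgc-26, hif-1, unc-51, F25B4.4, W06H8.6, lag-2 and Y49A3A.3. The lag-2 gene encodes a ligand of the Notch receptors, and its member had a signal of 32.9 in intergenic sequence 1825 bp downstream of the 5′ end. It ranked 8723 in replicate 1 and 339 in replicate 2. In the centre, plrg-1, a gene of the spliceosome, had a summit 151 bp upstream and a signal of 33.2. The member 3229 bp upstream of glb-3, a globin gene, had 32.9 and was matched in replicate 2 alone, at rank 245. The Y49A3A.3 member was matched in replicate 1 alone, at rank 6102. At ppm-1.A, a protein phosphatase gene, the signal was 32.4.

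The words marked in the sequences, 6 of 13 counted, were in a larger share of members than of weaker V peaks, by the least for ACCGTA, with no test made. The words were chosen with earlier results of these data known, so their shares are a description and no independent finding. ACGCAG was in the 200 bp window around the summit of 10.9% of members, 12.6% of strong peaks elsewhere, 4.05% of weaker V peaks and 5.10% of all pooled peaks. GCGCAC was in 8.87% of members, 9.75% of strong peaks elsewhere, 2.89% of weaker V peaks and 3.33% of all pooled peaks. The shares for TGCGTCTC were 5.46% in members, 5.64% in strong peaks elsewhere, 1.02% in weaker V peaks and 1.73% in all. Of the 25 reproducible members, 6 held TGCGTCTC (24.0%, interval 11.5 to 43.4%), among them those at sec-61.G, Y39B6A.43 and hif-1, against 11.1% of the 234 elsewhere. AGCGCG was in 6.14% of members, 7.37% of strong peaks elsewhere, 2.19% of weaker V peaks and 2.59% of all. GAGCGC was in 6.14% of members, 9.18% of strong peaks elsewhere, 2.57% of weaker V peaks and 3.27% of all.

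Unmarked words among the 13 also differed in share. CTGCGTC, which contains the reverse complement of a marked word, was in 6.83% of members, 7.23% of strong peaks elsewhere and 1.61% of weaker V peaks. GAGAGA was in 17.4% of members, 24.1% of strong peaks elsewhere and 10.5% of weaker V peaks. CACGTG was in 4.44% of members, 4.12% of strong peaks elsewhere and 2.84% of weaker V peaks. The remaining words lay closer between members and weaker V peaks. They were TATAAA with 22.9% against 22.2%, and CCAAT with 37.2% against 36.2%. For TTTCAG the shares were 32.4% against 36.6%, and for TTTTTT 64.2% against 66.3%.

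ACCGTA was in 1 of the 25 reproducible members (interval 0.710 to 19.5%) and in 25.2% of the 234 reproducible peaks elsewhere (interval 20.1 to 31.1%), with no test made. Over all members its share was 5.80%, against 8.67% of strong peaks elsewhere, 4.77% of weaker V peaks and 5.44% of all pooled peaks. Base composition also differed between the groups. The median G+C of the window was 36.0% in members, 37.0% in strong peaks elsewhere and 34.5% in weaker V peaks, while it was 46.5% in the reproducible members and 44.0% in reproducible peaks elsewhere. The part of base composition in the word shares was not tested. A match to a word describes letters in a window and no bound site.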

How the data were processed

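ChIP-seq peak lists of 1 group of 2 biological replicates were used. Members, gene lists and sequence words were chosen with earlier results of these data known. Per the text deposited with the lists, each replicate list was made from that replicate's alignments and 1 control file, the pooled list from both replicates' alignments, and the IDR list from these. Signal is the authors' own deposited value for each peak and was used within its list. Not given in the sources used here are the aligner, the peak caller and the signal's scaling. Depth was unknown. Summits were placed on Ensembl release 115 annotation (WBcel235, the ce11 build), with a 5′ UTR taking precedence over coding exons, then 3′ UTRs, other exons and introns. Summits within 100 bp were matched between lists. Fisher's exact test (two-sided) compared shares of peaks, which are not replicates, with Benjamini-Hochberg adjustment over 8 tests and a threshold of 0.05. Those p-values do not carry the spread between cultures. Intervals are 95% Wilson intervals. The functions were tested on simulated data (Python 3.11.15, scipy 1.17.1, pandas 2.3.3).

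Named genes were the nearest to the 20 strongest members, those nearest the threshold, reproducible arm members, up to 4 per gene list and the strongest of each annotation class, with the gene on the other side within 500 bp. Others are said to be picked out later. The 21 lists were made from gene symbols, so a few genes have other roles than a list's name.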

Additional observations from a re-analysis of the deposited data

How the results depend on the processing

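Odds ratios below are for members on V, and p-values are adjusted, from Fisher's exact test. Of the 67 alternatives tried, 49 left a result on its side of the threshold, or a value within its spread. Among the rest, 12 lost a call, 1 gained a call and 5 moved a value. With the IDR list alone 25 members were left, and with a signal of at least 36.2 there were 15. Against the other autosomes, the arm odds ratio was then 0.457 (p = 0.110, exact test) and 0.456 (p = 0.231). Against the weaker V peaks, the odds ratios with the IDR list were 2.56 near starts, 2.72 for intergenic summits and 0.406 for arms, each with p = 0.0615 by the exact test. At a signal of 36.2 they were 3.54 (p = 0.0780), 2.07 (p = 0.231) and 0.453 (p = 0.231, exact tests). Intergenic placing of the whole peak, for all members against the weaker V peaks, gave 1.14 (p = 0.490, exact test). One replicate at a time, the arm odds ratio against the other autosomes was between 0.799 and 0.809, past the threshold in neither case. The odds ratio near starts against weaker V peaks ran from 1.07 to 1.69, and that of divergent pairs against the other autosomes from 0.458 to 0.585. The causes were not tested. The share matched in both replicates was 34.8% within 50 bp, 65.9% within 200 bp and 8.19% among the strongest peaks of each list. Joining peaks within 1000 bp left 285 members, a single replicate gave 318 to 354, and the ce10 list 299. No paired analysis was possible because there was a single group. With 2 replicates and no read counts, the lists cannot tell weak binding from background.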
